A study of Rattus norvegicus with 20 samples.

Results

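The question here was whether binding of the NF-kB subunit p65 at gene promoters changed between 1h and 6h of liver regeneration in the same way after an ethanol diet as after a carbohydrate diet. For each promoter the change from 1h to 6h in carbohydrate-fed rats was subtracted from the change from 1h to 6h in ethanol-fed rats. This difference is called the diet difference below. A value under 0 means that signal fell more, or rose less, in the ethanol livers. It was measured at 14540 promoters on the 14 arrays of the 1h and 6h groups, of 20 arrays in the series, and then on the 11 of those 14 that belong to 1 array run.

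All animals were adult male wild-type Sprague Dawley rats of 8 to 10 weeks, kept for 5 weeks on a liquid diet. In the ethanol diet 36% of the calories came from ethanol, and the pair-fed controls received the same calories with carbohydrate in its place. Every rat had a 70% partial hepatectomy, the standard surgical model of liver regeneration, so both diets carry the surgery. The 1h and 6h arrays hold chromatin of the lobes left in the animal, 3 arrays of carbohydrate 1h, 4 of carbohydrate 6h, 3 of ethanol 1h and 4 of ethanol 6h. The 11 arrays of 1 run hold 2, 3, 2 and 4 of these in the same order, on 4 slides. The 14 arrays are of 3 runs. Outside the run of 11, the carbohydrate 1h and ethanol 1h arrays share a run, and the carbohydrate 6h array is of another. Run and slide were inferred from the identifiers that came with the arrays, and not from the labels. Each of the 14 arrays came from its own animal by the identifiers that came with the arrays. The labels number biological replicates without naming animals, so the p-values reflect the variation among these arrays alone, part of which could be technical. Titles and descriptions give each array's time, whereas the source field of every array names 0h, so times were taken from the titles. The 6 arrays of lobes taken at surgery (0h) do not enter the difference.

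NF-kB is a family of paired transcription factors, of which the p65 and p50 pair is the best known. In a resting cell the inhibitor IkB-alpha, made by Nfkbia, holds the pair in the cytoplasm, and cytokines such as tumour necrosis factor free it to enter the nucleus and bind kB sites. Nfkbia is itself a target, so that binding at its promoter is part of a loop that ends the signal, and NF-kB is known to be active in the first hours after hepatectomy.

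The arrays are whole-tissue measurements of precipitated DNA, in which fewer cells with bound p65 and less p65 bound per cell cannot be told apart. Signal is a log2 ratio of p65-precipitated over reference DNA, multiplied by -1 because 99.9% to 100% of each array's listed peaks lie below 0 in the deposited values, so its direction is likely and not stated by the submitters. The promoter signal is the mean of the probes in the 500 bp window with the highest mean over all 20 arrays. The arrays of a group agreed only in part, with a mean correlation of 0.490 over 18 pairs, and pairs of the 14 arrays ranged from -0.107 to 0.766. RNA was not measured, so the tissue label could not be checked on transcripts.

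The sequences of 4 promoters are given because they show both directions of the diet difference, and because 1 of them carries the kB site of the NF-kB inhibitor. They come from RefSeq for the build GRCr8 and run from 250 bases before to 50 bases after the start, 5′ to 3′ in the direction of the gene. Nfkbia lies on the minus strand at chr6:78597023-78597322, Pigr on the plus strand at chr13:44850932-44851231, Smarcad1 on the plus strand at chr4:95641650-95641949 and Semg1 on the minus strand at chr3:173332212-173332511. Capitals mark a match to the kB consensus.
Nfkbia: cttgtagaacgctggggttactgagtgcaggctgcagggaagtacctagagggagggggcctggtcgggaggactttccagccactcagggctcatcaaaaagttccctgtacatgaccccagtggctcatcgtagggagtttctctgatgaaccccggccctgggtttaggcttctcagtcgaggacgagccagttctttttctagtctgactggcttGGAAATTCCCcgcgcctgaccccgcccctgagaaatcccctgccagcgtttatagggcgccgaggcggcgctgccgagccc
Pigr: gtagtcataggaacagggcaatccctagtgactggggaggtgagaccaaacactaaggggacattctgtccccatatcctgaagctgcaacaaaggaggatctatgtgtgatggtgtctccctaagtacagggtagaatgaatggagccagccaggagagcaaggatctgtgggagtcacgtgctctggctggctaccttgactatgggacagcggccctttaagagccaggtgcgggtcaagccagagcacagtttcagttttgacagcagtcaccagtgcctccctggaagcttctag
Smarcad1: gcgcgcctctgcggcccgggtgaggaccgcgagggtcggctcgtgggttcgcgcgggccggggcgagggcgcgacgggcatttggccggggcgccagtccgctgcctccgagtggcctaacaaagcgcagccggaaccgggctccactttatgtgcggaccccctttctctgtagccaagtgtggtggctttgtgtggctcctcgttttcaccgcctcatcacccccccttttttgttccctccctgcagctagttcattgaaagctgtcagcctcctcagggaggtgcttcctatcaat
Semg1: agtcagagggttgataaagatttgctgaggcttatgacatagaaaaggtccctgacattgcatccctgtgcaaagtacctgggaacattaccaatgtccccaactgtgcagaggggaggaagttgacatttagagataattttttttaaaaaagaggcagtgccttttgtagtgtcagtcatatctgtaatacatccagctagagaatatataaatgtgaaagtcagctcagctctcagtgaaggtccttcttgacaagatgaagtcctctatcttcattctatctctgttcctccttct
The kB consensus, a motif of 10 bases searched on both strands, has 1 match in the Nfkbia sequence, at position 220, and none in the other 3. It occurs in 7.60% of the 27457 RefSeq promoters of 300 bases. The sequences hold 15 CpG pairs in Nfkbia, 26 in Smarcad1, 3 in Pigr and 0 in Semg1. By their distance from the listed start, none of the 4 windows in which signal was measured lies within these bases. The array files use a build that is not given in the sources used here, so window coordinates below are those of the files and cannot be set beside the GRCr8 positions.

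With all 14 arrays no promoter passed the test for a diet difference. The smallest adjusted p from limma with Benjamini-Hochberg adjustment was 0.0839, shared by 17 promoters, and percent called was 0. At an unadjusted p under 0.05 there were 2388 promoters, 16.4% of those tested, where 727 would be expected on average with no difference. Promoters on the same arrays are not independent, so that number can vary widely around 727. Nothing is read from the gap. The median diet difference was -0.14 on the log2 scale. In the same fit, the change from 1h to 6h alone was called at 3992 promoters (27.5%) in the carbohydrate livers and at 4100 (28.2%) in the ethanol livers, and neither diet comparison at a single time had a call. The carbohydrate calls were 18.6% of promoters higher at 6h and 8.9% lower, and the ethanol calls 9.15% higher and 19% lower. Both changes were called in the same direction at 13% of promoters. In contrast, 17 promoters (0.117%) had both time changes called in opposite directions, and all 17 rose with the carbohydrate diet and fell with ethanol. Changes to the fit brought calls. Leaving out 1 array, ethanol 1h replicate 1, gave 1347 calls, adding the array run as a term gave 689 and array weights gave 692.

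Within the 11 arrays of 1 run 1571 promoters were called for the diet difference, 10.8% of those tested. Of these, 1487 (10.2%) had a value under 0 and 84 (0.578%) a value above 0. The 2 time changes ran in opposite directions by sign at 1280 of the 1571 (8.8% of all promoters), which is 81.5% of the calls. Over all promoters the share was 36.6%, and nothing is read from the gap, since a call requires unequal changes. At 1208 promoters signal was higher at 6h than at 1h in the carbohydrate livers and lower at 6h in the ethanol livers, and at 72 the reverse. The others moved the same way in both diets by sign and differed in size. The change from 1h to 6h alone was called at 24% of promoters with carbohydrate (18.7% higher, 5.34% lower at 6h) and at 35.4% with ethanol (10.8% higher, 24.6% lower). Ethanol minus carbohydrate was called at 352 promoters (2.42%) at 1h, 2.16% higher and 0.261% lower, and at 228 (1.57%) at 6h, 0.00688% higher and 1.56% lower. The 228 became 0 with the 1000 bp window, the tiled region mean or slide as a fixed block, 1 with window centring and 3311 with array weights. They were also 0 without carbohydrate 6h replicate 2 or 4 or ethanol 6h replicate 1 or 2, 5 without carbohydrate 6h replicate 3, 626 and 610 without ethanol 1h replicates 2 and 3, and 969 without ethanol 6h replicate 3. The 352 at 1h became 57 and 40 without carbohydrate 1h replicates 2 and 3, 17 without ethanol 1h replicate 3, 1172 without ethanol 1h replicate 2, and 223 and 233 without carbohydrate 6h replicate 3 and ethanol 6h replicate 1. Among the values under 0 of the diet difference there were 216 with both changes down and 63 with both up, and among the values above 0 there were 6 of each.

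**Figure D1:**
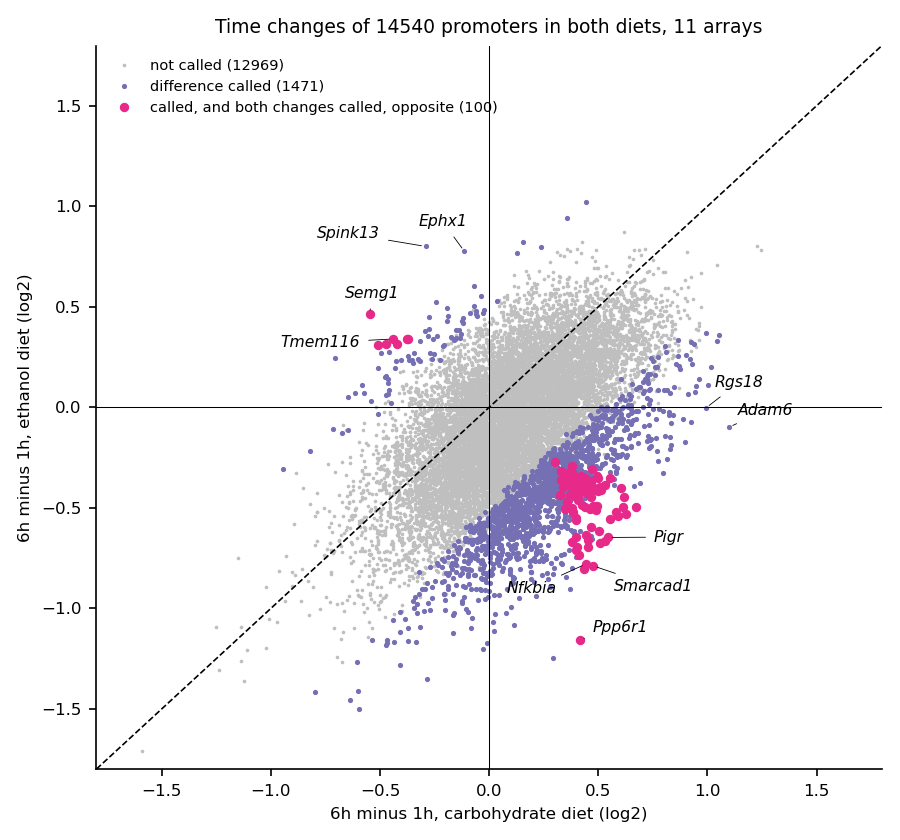
Each point is 1 of 14540 promoters, with the 6h minus 1h change (log2) of the carbohydrate livers on the x axis and of the ethanol livers on the y axis, from the 11 arrays of 1 run. The dashed line marks equal changes, purple points are the 1471 promoters called for the diet difference alone and pink points the 100 at which both changes were also called and opposite, 93 of them at lower right and 7 at upper left.

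The strict form of an opposite time course, in which each change passed its own test, was met by 100 promoters (0.688%) in the 11 arrays. Signal rose with carbohydrate and fell with ethanol at 93 of them (0.64%), and fell with carbohydrate and rose with ethanol at 7 (0.0481%). Arrays of different groups share slides, and with slide as a fixed block the 100 became 7 and the 17 of the 14-array fit became 0. Both changes were called in the same direction at 1429 promoters (9.83%). A further count used no test, but the same windows and array centring. The 1h and 6h arrays did not overlap in either diet, in opposite directions, at 771 promoters (5.3%), of which 720 (4.95%) rose with carbohydrate. With all 14 arrays the same count was 34 promoters (0.234%), 30 of them up with carbohydrate (0.206%) and 4 down (0.0275%). Groups this small separate at some promoters with no difference, and that share was not worked out, so nothing is read from either count. Across promoters the 2 time changes correlated at r = 0.559 in the 11 arrays, over genes that are not independent replicates.

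The 1h groups of the run hold 2 arrays each, and single arrays of both times moved the counts. Without carbohydrate 1h replicate 3 the 1571 calls became 312, and without ethanol 1h replicate 3 they became 331. Without ethanol 1h replicate 2 there were 2558 calls, without carbohydrate 6h replicate 3 there were 1036 and without carbohydrate 6h replicate 4 there were 749. Leaving out ethanol 6h replicate 1 gave 891 and ethanol 6h replicate 2 gave 964. The 100 promoters with both changes called became 10 without carbohydrate 1h replicate 3, 33 without ethanol 1h replicate 3 and 184 without ethanol 1h replicate 2. They became 64, 50 and 31 without carbohydrate 6h replicates 2, 3 and 4, and 66 and 161 without ethanol 6h replicates 1 and 3. A core of 168 promoters was called with each array of the 11 left out in turn, 161 under 0 and 7 above, and 50 of the 100 promoters are among them.

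Whole-array measures moved in the same pattern. The peak lists of the run held 5358 and 6052 peaks on the carbohydrate 1h arrays, and 6704, 6121 and 6591 on the carbohydrate 6h arrays. The ethanol 1h arrays had 8435 and 9387, and the ethanol 6h arrays 4023, 3602, 5605 and 5303. The ethanol 1h arrays had the most peaks of the run and the ethanol 6h arrays mostly the fewest, with no overlap between times in either diet. The diet difference was -5044.75 peaks (exact permutation of diet within time, two-sided p = 0.00952, 0.0476 after Benjamini-Hochberg adjustment over 10 tests). The permutation had 210 relabelings in the run and did not take account of shared slides. It exchanges diets at both times, so it does not test an equal time change alone. On the arrays outside the run the counts were 4881 for carbohydrate 1h, 5916 for ethanol 1h and 3722 for carbohydrate 6h, and with them the difference was -3633.58 (exact permutation p = 0.0286, adjusted 0.0556). The share of promoters with a peak had a diet difference of -21.5 percentage points in the run (exact permutation p = 0.00952, adjusted 0.0476). The SD of promoter signal within an array had a difference of -0.0949 (exact permutation p = 0.0333, adjusted 0.0556). The median promoter signal had -0.183 (exact permutation p = 0.0619, adjusted 0.0884). The median absolute deviation of all probes had -0.0516 (exact permutation p = 0.257, adjusted 0.286). The part of peak number and array spread in the promoter results was not tested beyond the scaled values given with them.

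**Figure D2:**
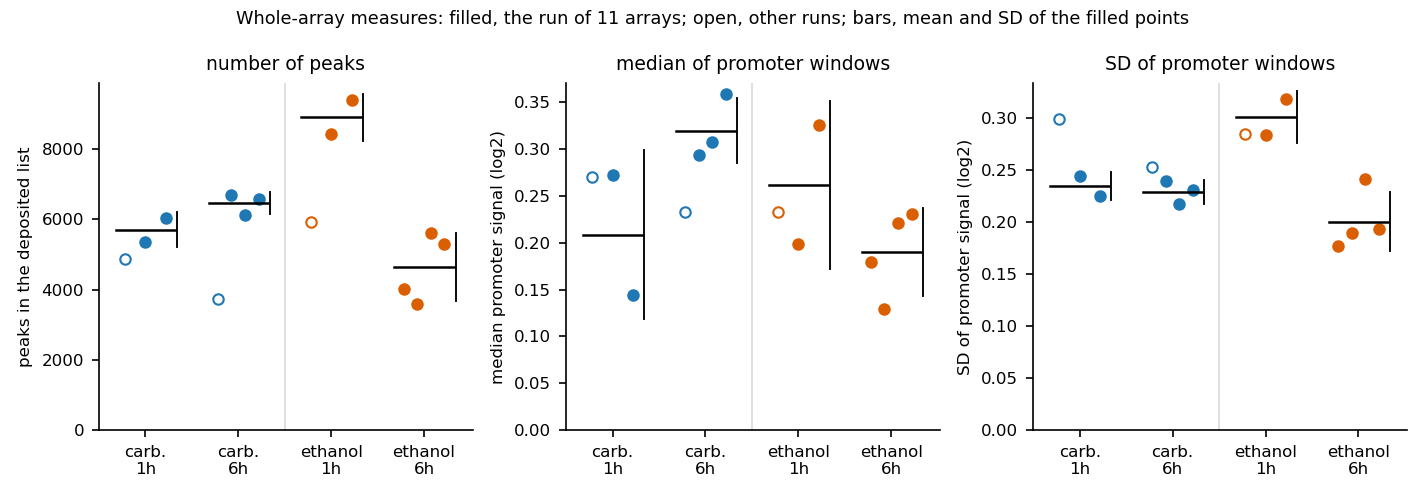
Number of listed peaks, median promoter signal (log2) and SD of promoter signal (log2) on each array by diet and time; filled points are the run of 11 arrays, open points the other runs, and bars give the mean and SD of the filled points. Both ethanol 1h arrays of the run, at 8435 and 9387 peaks, lie above all others, and the open ethanol 1h point, at 5916, does not.

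The inhibitor promoter Nfkbia had both time changes called, in opposite directions, in the 11-array and the 14-array fit without a slide term. In the run its signal was 0.24 and 0.04 on the carbohydrate 1h arrays and 0.61, 0.52 and 0.61 on the carbohydrate 6h arrays. It was 0.80 and 1.12 on the ethanol 1h arrays and 0.07, 0.06, 0.35 and 0.23 on the ethanol 6h arrays. All carbohydrate 6h arrays lay above both 1h arrays and all ethanol 6h arrays below both 1h arrays. Signal rose by 0.44 with carbohydrate (adjusted p = 0.0236) and fell by 0.78 with ethanol (adjusted p = 7.07e-05), a diet difference of -1.22 ± 0.20 (SE, limma adjusted p = 0.000734). At 1h the ethanol livers were higher by 0.82 (adjusted p = 0.00467), and at 6h the difference was -0.40 (adjusted p = 0.0668). The submitters' lists held an Nfkbia peak on neither carbohydrate 1h array of the run, on 2 of the 3 at carbohydrate 6h, on both at ethanol 1h and on none at ethanol 6h.

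Outside the run the Nfkbia values were -0.22 for carbohydrate 1h, 0.34 for carbohydrate 6h and 0.06 for ethanol 1h. Carbohydrate 6h lay above carbohydrate 1h, as in the run, but these arrays are of different runs, so time and run cannot be told apart. The ethanol 1h array was as low as the ethanol 6h arrays, which are of another run. With all 14 arrays the changes were 0.50 (adjusted p = 0.0277) and -0.48 (adjusted p = 0.035), and the diet difference of -0.98 ± 0.24 did not pass (adjusted p = 0.106). The window, chr6:75733672-75734072 in the files' build, has its centre at -1397 bases from the listed start, where a value under 0 is upstream. Averaged over the whole tiled region the difference was -0.41 (adjusted p = 0.00586). With slide as a fixed block the limma diet difference of Nfkbia was -1.24 (adjusted p = 0.00467) in 11 arrays and -1.06 (adjusted p = 0.0386) in 14, and the carbohydrate change no longer passed (0.41, adjusted p = 0.167, and 0.32, adjusted p = 0.292). The same block took the carbohydrate call, but not the diet difference of the 11 arrays, from Ppp6r1, Smarcad1, Pigr and Plg (adjusted p of the carbohydrate change 0.331, 0.0532, 0.0563 and 0.246), and Semg1 kept all 3 calls there.

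The lowest value in the run belonged to Ppp6r1, a regulatory subunit of protein phosphatase 6. Its signal was 0.20 and 0.03 at carbohydrate 1h, 0.56, 0.46 and 0.57 at carbohydrate 6h, 1.24 and 1.20 at ethanol 1h, and -0.07, 0.04, -0.03 and 0.30 at ethanol 6h. The groups did not overlap between times in either diet, and both ethanol 1h arrays stood above every other array of the run. Named promoters were chosen by values on these arrays, so such separation, here and at the promoters below, is a description only. The diet difference was -1.57 ± 0.19 (limma adjusted p = 1.68e-05), made of 0.42 and -1.16. Outside the run the order differed, with 0.38 for carbohydrate 1h, -0.20 for carbohydrate 6h and 0.39 for ethanol 1h. With all 14 arrays the value was -1.03 ± 0.26 (adjusted p = 0.127), and over the tiled region it was -0.16 (adjusted p = 0.108).

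Smarcad1, a chromatin remodeller of the SNF2 family, had the same form. Its signal was 0.14 and -0.12 at carbohydrate 1h, 0.54, 0.46 and 0.46 at carbohydrate 6h, 0.92 and 0.92 at ethanol 1h, and 0.26, -0.06, 0.14 and 0.18 at ethanol 6h. Again no 1h array overlapped with a 6h array of its diet. Signal rose by 0.48 and fell by 0.79, a diet difference of -1.27 ± 0.18 (limma adjusted p = 0.000221), and with all 14 arrays both changes still passed and the difference was -0.97 (adjusted p = 0.0839). The 3 arrays outside the run were at -0.01, 0.32 and 0.14 for carbohydrate 1h, carbohydrate 6h and ethanol 1h.

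Pigr makes the receptor that carries polymeric immunoglobulins across epithelia into bile, and its gene is a known NF-kB target. It was picked after its values were seen. Its signal was -0.06 and -0.23 at carbohydrate 1h, 0.35, 0.45 and 0.40 at carbohydrate 6h, 0.56 and 0.73 at ethanol 1h, and -0.04, -0.22, 0.05 and 0.18 at ethanol 6h. The times did not overlap in either diet. The diet difference was -1.19 ± 0.17 (limma adjusted p = 0.000221), with a rise of 0.54 and a fall of 0.65. Outside the run both 1h arrays were high, at 0.40 for carbohydrate and 0.79 for ethanol, and carbohydrate 6h was at -0.09.

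Further promoters at the low end of the run are of mixed function. The window shared by the histone genes H4c14 and Hist2h3c2 had a diet difference of -1.54 (limma adjusted p = 0.000221), and Ttpa, the vitamin E transfer protein of hepatocytes, had -1.24 (adjusted p = 0.000443). Lcmt2, an enzyme of transfer RNA modification, had -1.27 (adjusted p = 0.0013), and Nfs1, the cysteine desulfurase of iron-sulfur cluster assembly, had -1.20 (adjusted p = 0.0013). Nfs1 fell by 1.08 with ethanol, with a carbohydrate change of 0.12 that did not pass. Adam6 differed in form. It rose by 1.10 with carbohydrate, had an ethanol change of -0.10 that did not pass, and lost its call without carbohydrate 1h replicate 3 (adjusted p = 0.0666). Averaged over its tiled region the diet difference turned to 0.17, and to 0.12 with 14 arrays. At the window of that region with the highest mean of the unmultiplied ratio, the 11 arrays gave 1.10 (limma adjusted p = 0.00555). Adam6 thus had calls in both directions, depending on the window.

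The 14-array fit, in which 17 promoters had both changes called, holds 3 arrays that the run lacks. Those with a gene name and the largest diet difference were Ccno at -1.10, Nfkbia at -0.98, Smarcad1 at -0.97, Sugt1 at -0.91 and Smim13 at -0.89. Next came C9h2orf49 and Tgfbrap1, which share a window, at -0.88, Fam234b at -0.85, Art3 and Cxcl9 at -0.82, Plg at -0.81, Cdc40 and Wasf1 at -0.80, Vdac3 at -0.78 and Zfp438 at -0.76. Sugt1 is a co-chaperone of HSP90, Vdac3 a channel of the mitochondrial outer membrane, Plg the hepatocyte gene of plasminogen, and Cxcl9 a chemokine gene. With the 1000 bp window the values of Smim13 and of Cdc40 and Wasf1 turned to 0.084 and 0.26, and in the 11 arrays to 0.23 and 0.39. None passed the test of the diet difference itself with 14 arrays, where their adjusted p lay between 0.0839 and 0.129.

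Plg, in the hepatocyte, codes for the precursor of plasmin. Its signal was 0.13 and 0.23 at carbohydrate 1h, 0.52, 0.45 and 0.76 at carbohydrate 6h, 0.76 and 0.91 at ethanol 1h, and 0.15, 0.01, 0.30 and 0.29 at ethanol 6h. Outside the run carbohydrate 1h was at 0.03, carbohydrate 6h at 0.35 and ethanol 1h at 0.16. The carbohydrate groups did not overlap over all 7 arrays, and the ethanol 1h array outside the run lay within the range of ethanol 6h. In the run the diet difference was -1.05 (limma adjusted p = 0.00207).

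Of the reverse direction, 5 of the 7 promoters had a gene name, Semg1, Gabrp, Tmem116, Moxd2 and Slco1a1. Semg1, a seminal vesicle protein, had signal of 0.64 and 0.54 at carbohydrate 1h and 0.06, -0.07 and 0.13 at carbohydrate 6h. It had -0.31 and -0.03 at ethanol 1h and 0.36, 0.25, 0.22 and 0.35 at ethanol 6h. The carbohydrate 6h arrays lay below both 1h arrays and the ethanol 6h arrays above both 1h arrays. The diet difference was 1.01 ± 0.17 (limma adjusted p = 0.000756) in the run and 0.87 (adjusted p = 0.0839) with all 14 arrays. The arrays outside the run were at 0.88 for carbohydrate 1h, 0.36 for carbohydrate 6h and 0.32 for ethanol 1h. The sign depends on the window, since the window with the highest mean over the 11 arrays alone gave -0.38.

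Slco1a1 is an uptake transporter of the hepatocyte membrane, and its gene has 2 tiled regions. In the region described its signal was 0.13 and -0.03 at carbohydrate 1h, -0.41, -0.33 and -0.21 at carbohydrate 6h, -0.29 and -0.34 at ethanol 1h, and 0.16, 0.23, -0.31 and 0.01 at ethanol 6h. The carbohydrate groups did not overlap, whereas 1 ethanol 6h array lay between the ethanol 1h arrays. The diet difference was 0.71 ± 0.18 (limma adjusted p = 0.0134), and it did not pass without carbohydrate 1h replicate 2 (adjusted p = 0.0582) or without ethanol 1h replicate 3 (adjusted p = 0.0633). No array of these groups in the run had a listed peak there. The other region had 0.34 (adjusted p = 0.165).

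Tmem116 (0.78, limma adjusted p = 0.0048), Moxd2 (0.79, adjusted p = 0.008) and Gabrp (0.74, adjusted p = 0.00847) had the same form. Gabrp, a subunit of the GABA-A receptor, did not pass without carbohydrate 1h replicate 2 (adjusted p = 0.0651), and Moxd2 did not without ethanol 1h replicate 3 (adjusted p = 0.0544). Tmem116 turned to -0.41 with the window chosen on the 11 arrays. Spink13 and Ephx1 rose with ethanol and had carbohydrate changes that did not pass. Spink13, a serine protease inhibitor, had a diet difference of 1.09 (adjusted p = 0.00795; 0.0595 without carbohydrate 1h replicate 3). Ephx1, the microsomal epoxide hydrolase, had 0.89 (adjusted p = 0.00365) at 1 of its 2 tiled regions and -0.36 (adjusted p = 0.145) at the other.

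**Figure D3:**
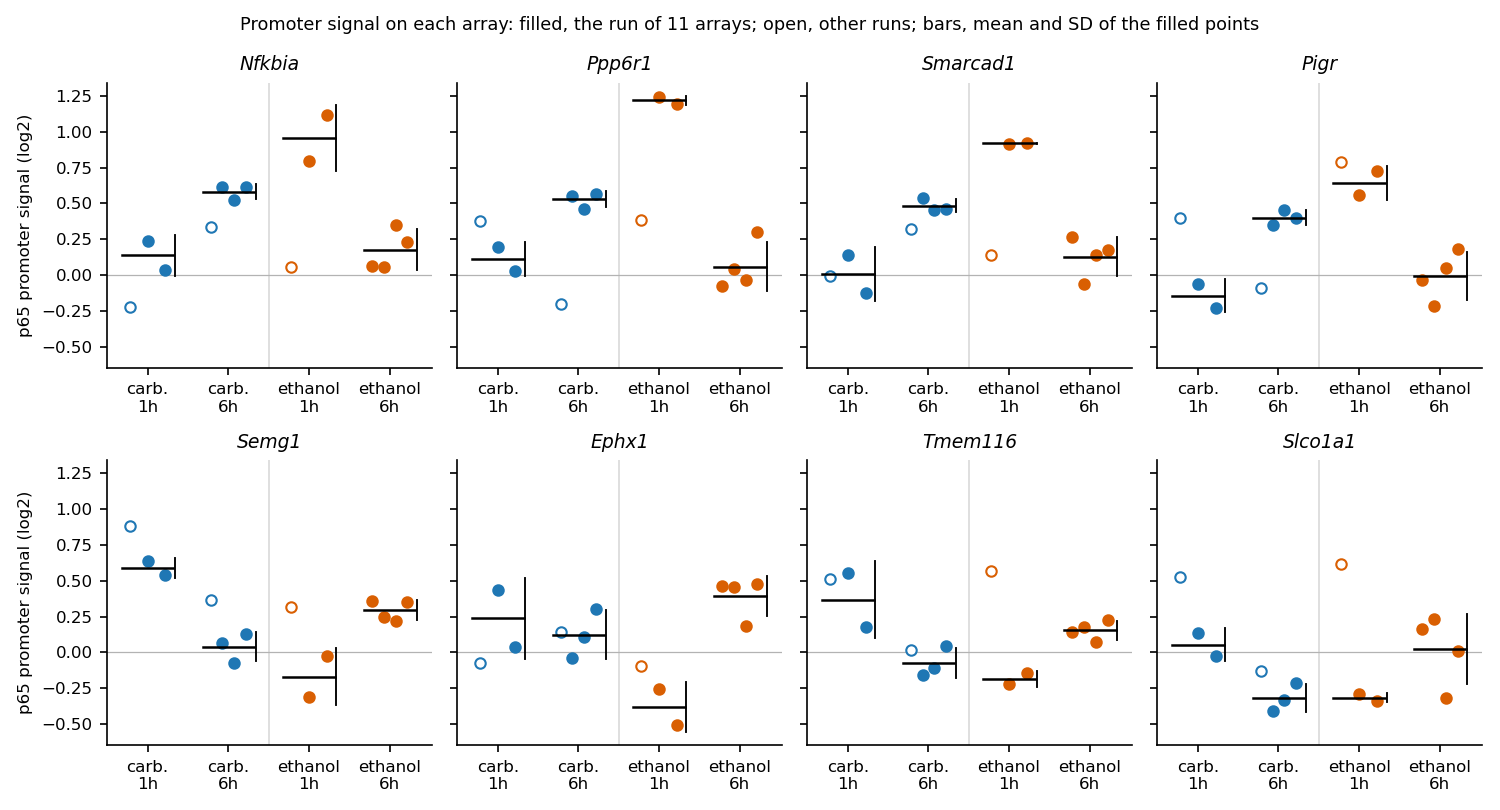
Promoter signal (log2) on each array at 8 promoters, by diet and time; filled points are the run of 11 arrays, open points the other runs, and bars give the mean and SD of the filled points. In the upper row the filled points rise with carbohydrate and fall with ethanol, as at Nfkbia from 0.80 and 1.12 to between 0.06 and 0.35, and the open ethanol 1h point of Nfkbia, Ppp6r1 and Smarcad1 lies well below the filled ones.

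A slide outside the run carried a carbohydrate 1h and an ethanol 1h array, replicate 1 of each, and so gives the 1h part of the comparison on arrays that the 11-array test did not use. Over the 1487 promoters called under 0, the median of ethanol minus carbohydrate on that slide was -0.0013, and 49.6% were above 0. Over all promoters the median there was -0.020, and 46.25% were above 0. Over the 84 called above 0 the median was 0.022. On the slides of the run, which chose these promoters, the same medians for the 1487 were 0.27 between the replicates 2 and 0.57 between the replicates 3. Over all promoters those medians were -0.063 and 0.19, so the slides also differed as a whole. For the 93 promoters up with carbohydrate and down with ethanol the outside slide gave a median of -0.0085, with 46 above 0. By these medians the higher 1h signal of the ethanol livers at these promoters was not seen on the pair outside the run. Single promoters varied, with Nfkbia 0.06 against -0.22, Pigr 0.79 against 0.40, Ppp6r1 0.39 against 0.38 and Semg1 0.32 against 0.88 for ethanol against carbohydrate. No slide outside the run holds both diets at 6h.

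Centring and scaling moved the number of calls and their direction. With arrays centred on all probes, the median diet difference over all promoters was -0.19 in the run. With each array centred on its promoter windows the median was -0.0067, and 785 promoters were called, 464 under 0 and 321 above. With the windows also scaled to equal SD 162 were called, 97 under 0 and 65 above. With the mean of the whole tiled region the split was 653 and 477, and with the windows of the deposited direction it was 6 and 126. Values under 0 therefore made up 94.7% of the calls as reported and 59.1%, 59.9%, 57.8% and 4.55% in these 4 settings. The last setting chose windows by the highest mean of the unmultiplied ratio, and its values were still multiplied by -1. Its split is thus one at other windows, and not the split with the ratio's sign left as deposited. Under the reported setting and under equal spread, quantile normalization, window centring and window scaling alike, 138 promoters were called, 97 under 0 and 41 above, and 130 of them had opposite time courses by sign. Nfkbia, Ppp6r1, Smarcad1, Pigr, Plg, Semg1, Slco1a1, Ephx1 and Tmem116 are among the 138. On the slide outside the run the 97 had a median of ethanol minus carbohydrate at 1h of 0.017, beside -0.020 over all promoters.

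**Figure D4:**
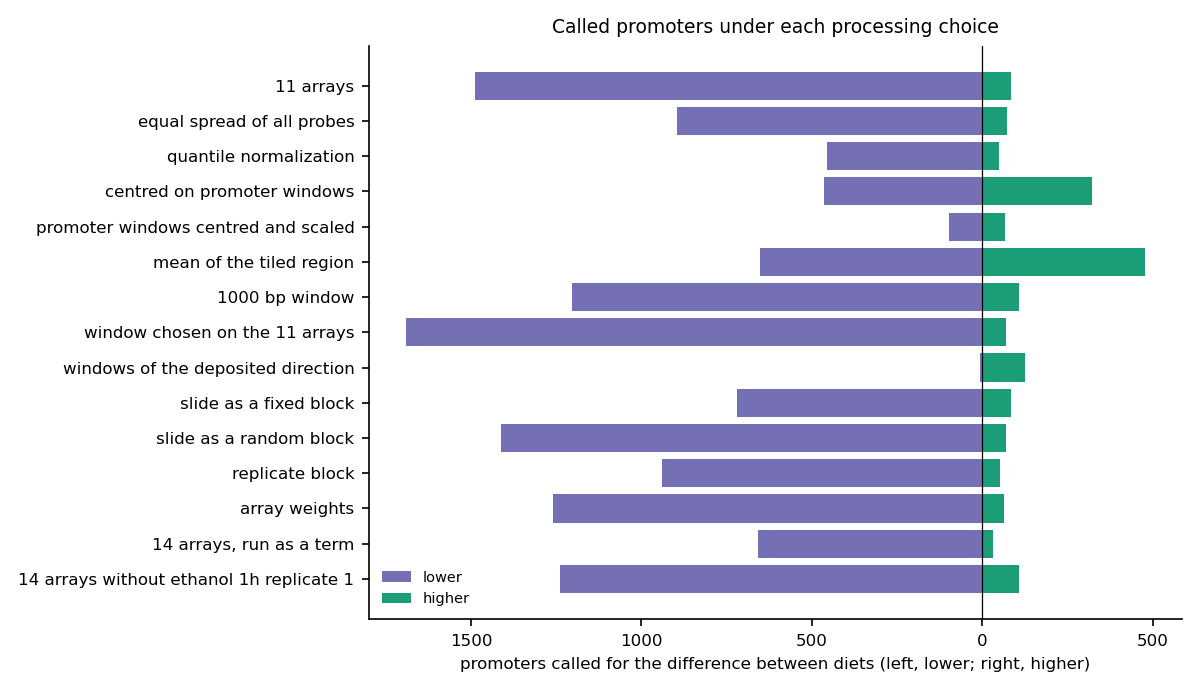
Bars give the number of promoters called for the diet difference under each processing choice, to the left for values under 0 and to the right for values above 0. The first bar, 1487 and 84, is the result of the 11 arrays, and window centring (464 and 321), window scaling (97 and 65) and the tiled region mean (653 and 477) have the most even splits.

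Gene lists were read by counts in the 11-array fit, beside 10.8% of all promoters. Of 42 NF-kB targets measured 6 were called (14.3%), all under 0, with a list median of -0.23 beside -0.19. They were Nfkbia, the chemokine Cxcl1 at -0.98, the ferritin heavy chain Fth1 at -0.74, the p50 and p52 partner Bcl3 at -0.61, the signalling adaptor Traf2 at -0.55 and the nuclear IkB protein Nfkbiz at -0.53. Their time courses differed, as Nfkbia alone had both changes called. Fth1, Bcl3 and Traf2 had changes of -0.27, -0.25 and -0.14 with carbohydrate and of -1.01, -0.86 and -0.69 with ethanol, all in 1 direction. Without ethanol 1h replicate 3 only 1 of the 42 was called, Nfkbia, and with scaled windows again Nfkbia alone (adjusted p = 0.0101). Without carbohydrate 1h replicate 3 or carbohydrate 6h replicate 2 there were 3, and without ethanol 1h replicate 2 there were 10.

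Immediate early genes, which respond to growth signals without new protein synthesis, had the highest share, with 12 of 38 called (31.6%), all under 0, and a median of -0.33. Here the time courses were mostly not opposite. With ethanol 28 of the 38 fell and none rose, and with carbohydrate 17 fell and 1 rose. Over all promoters 24.6% fell and 10.8% rose with ethanol, and 5.34% fell and 18.7% rose with carbohydrate. Zfp36, which makes an RNA-destabilising protein, had changes of -0.80 with carbohydrate and -1.42 with ethanol, and Hes1, a Notch target, of -0.60 and -1.50. The transcription factor gene Fos had changes of -0.20, which did not pass, and -0.96. Egr3 was the one that rose with carbohydrate, by 0.68. With scaled windows the list had 1 call, above 0, at a promoter outside the 12. The 12 calls became 1 without carbohydrate 1h replicate 3, 3 without ethanol 1h replicate 3 and 7 without carbohydrate 6h replicate 4 or without ethanol 6h replicate 1, and none of the 12 passed with scaled windows.

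In the oxidative, heat and unfolded protein stress list 8 of 33 were called (24.2%), all under 0. Txnrd1, the thioredoxin reductase, had -0.84 (limma adjusted p = 0.00668), and Gpx1, Sod1, Cat and the chaperone Hspa5 had -0.66, -0.66, -0.54 and -0.53. Among acute phase and plasma protein genes 6 of 29 were called under 0 (20.7%), with the fibrinogen chain Fga at -0.83 and ceruloplasmin (Cp) at -0.55. Another tiled region of Fga had -0.46 (adjusted p = 0.0998). With scaled windows 0 of the 33 stress genes and 0 of the 29 acute phase genes were called. The stress count became 1 without carbohydrate 1h replicate 3 and 2 without ethanol 1h replicate 3, and the acute phase count 1 and 3. The stress count was also 3 without carbohydrate 6h replicate 2 or 3, 1 without carbohydrate 6h replicate 4, 2 and 3 without ethanol 6h replicates 1 and 2, and 5 without ethanol 1h replicate 2.

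Of 34 cytokine and JAK-STAT genes 6 were called under 0 and 1 above (20.6%). Il6r, the interleukin 6 receptor, had -1.09 (limma adjusted p = 0.0013) and fell by 0.82 with ethanol. Its signal was 0.26 and 0.21 at carbohydrate 1h, 0.51, 0.58 and 0.41 at carbohydrate 6h, 0.95 and 1.11 at ethanol 1h, and 0.14, 0.20, 0.31 and 0.17 at ethanol 6h. The ethanol 1h arrays stood apart from all others, and on the arrays outside the run ethanol 1h was at 0.24 and carbohydrate 1h at 0.40. The shared receptor chain Il6st had -0.69. The call above 0 was the anti-inflammatory cytokine gene Il10, at 0.62 (adjusted p = 0.0214), which fell by 0.35 with carbohydrate, and which did not pass without carbohydrate 1h replicate 3, carbohydrate 6h replicate 3 or ethanol 1h replicate 3 (adjusted p = 0.0789, 0.0597 and 0.139). The list count became 1 without carbohydrate 1h replicate 3 and 2 without ethanol 1h replicate 3.

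In alcohol and xenobiotic metabolism 5 of 35 were called under 0, and Ephx1 above (17.1%). Cyp2e1, the ethanol-inducible cytochrome, had -0.62 (limma adjusted p = 0.0283) with changes of 0.13 and -0.49, and the catalase gene Cat -0.54. The aryl hydrocarbon receptor gene Ahr had -0.94 ± 0.17 (adjusted p = 0.00193), and -0.13 (adjusted p = 0.239) over its tiled region. Cyp2e1 did not pass without carbohydrate 1h replicate 3 (adjusted p = 0.119), nor with scaled windows (adjusted p = 0.226). The list count became 2 without carbohydrate 1h replicate 3 and 3 without ethanol 1h replicate 3, carbohydrate 6h replicate 2 or 4, or ethanol 6h replicate 1 or 2.

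Cell cycle genes had 4 of 35 called under 0 (11.4%), close to all promoters, among them the window of Pcna, the DNA clamp of replication, and Tmem230, which rose by 0.46 with carbohydrate and fell by 0.40 with ethanol. Apoptosis genes had 5 of 27 (18.5%), ribosomal proteins 9 of 77 (11.7%) and the respiratory chain 10 of 79 (12.7%), all under 0. The comparison list of testis and neuronal genes had 5 of 32 (15.6%), beside 14.3% of NF-kB targets. Olfactory receptors, also a comparison list, had 28 of 1164 (2.41%), all under 0, and 756 of the 1164 rose with carbohydrate and 546 with ethanol, where 18.7% and 10.8% of all promoters rose. With window centring 20 olfactory receptors were called above 0 and 4 under 0, beside 321 and 464 of all promoters. With scaled windows 1 was called above 0 and 1 under 0. Calls were also counted among growth factor signalling (4 of 45), lipid metabolism (2 of 43), glucose and amino acid metabolism (2 of 37) and liver transcription factors (1 of 35). The transforming growth factor and matrix list had 3 of 26. Without ethanol 1h replicate 2, where 2558 of all promoters were called, growth factor signalling had 11, liver transcription factors 8, the matrix list 12 and lipid metabolism 5. Without ethanol 6h replicate 3 growth factor signalling had 10 and the matrix list 5. Without carbohydrate 1h replicate 3 growth factor signalling, lipid metabolism, glucose and amino acid metabolism and liver transcription factors had 0. Without carbohydrate 1h replicate 3 the cell cycle, apoptosis, ribosomal and respiratory counts were 1, 3, 1 and 2, and without ethanol 1h replicate 3 they were 0, 3, 2 and 1. Without ethanol 1h replicate 2 they were 7, 8, 15 and 22. The testis and neuronal count was 0 without carbohydrate 1h replicate 3 and 2 without ethanol 1h replicate 3. The olfactory count was 0, 2 and 73 without carbohydrate 1h replicate 3, ethanol 1h replicate 3 and ethanol 6h replicate 3. It was 10 and 13 without ethanol 6h replicates 1 and 2, 56 with carbohydrate 1h replicate 2 left out, and 15 and 9 with replicate 3 or 4 of carbohydrate 6h left out.

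Markers of liver cell types had few calls, but their lists are short, so little is read from these counts. Of hepatocyte markers 1 of 15 was called, Cyp2e1, and of lymphocyte and neutrophil markers 1 of 20. The tool limma called none of 9 Kupffer cell, 15 stellate cell, 9 sinusoidal endothelium and 11 cholangiocyte markers, and 1 each of the Kupffer, stellate and cholangiocyte markers passed without ethanol 1h replicate 2, as did 1 Kupffer and 1 stellate marker without ethanol 6h replicate 3. The medians of these lists without a call, from -0.15 to -0.025, were nearer 0 than that of all promoters. With scaled windows they were above 0, from 0.070 to 0.17. Lymphocyte and neutrophil markers had -0.11, and 0.076 with scaled windows. Hepatocyte markers went the other way, with a median of -0.22 beside -0.19 over all promoters, and -0.013 with scaled windows.

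**Figure D5:**
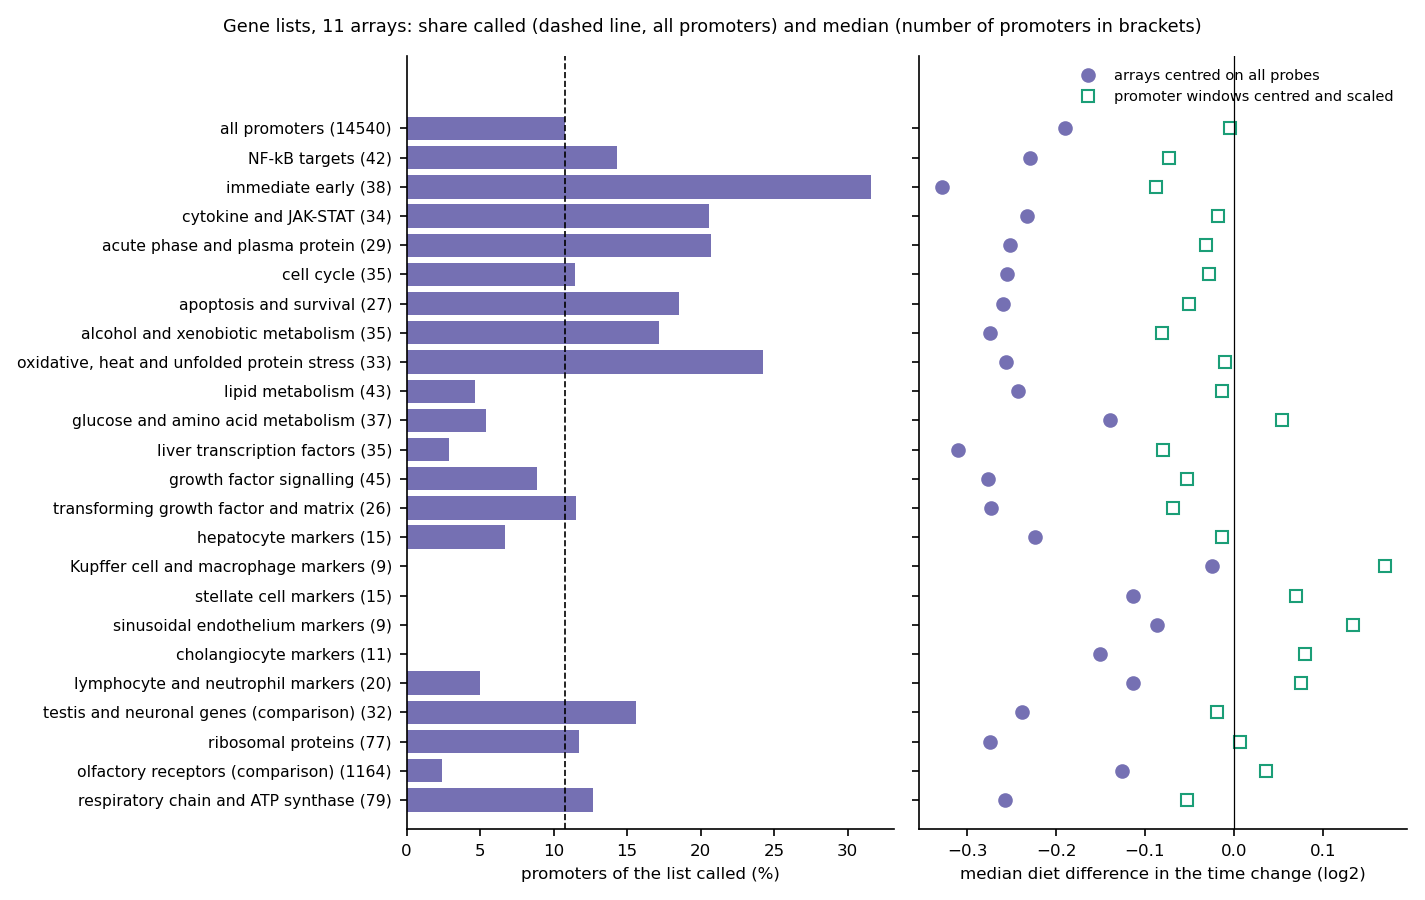
Left, the share of each list's measured promoters called for the diet difference in 11 arrays (%), with a dashed line at 10.8% for all promoters; right, the median diet difference (log2) with arrays centred on all probes (circles) and with promoter windows centred and scaled (squares). Immediate early genes have the highest share, at 31.6%, and their median moves from -0.33 to -0.088 with scaled windows.

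The promoters called under 0 are described here by sequence, position and mean signal, beside all promoters. Among those with a RefSeq sequence the median GC content was 61.0%, beside 57.7% over all measured promoters with one, and the median number of CpG pairs in 300 bases was 22, beside 15. The kB consensus was found in 9.67% of them and in 8.47% of all. These sequence values are of the 300 bases at the start, and not of the measured windows. Their window lay at a signed median of -608.5 bases from the listed start, beside -869 over all. Fewer of the named ones had it within 500 bases of the start, 15.1% beside 18.5%, and 12.9% had more than 1 gene, beside 8.66%. For the 84 called above 0 the base composition is not reported, because 70.9% of the named ones had a sequence, which is below 80%. Their windows lay farther out, at a median of -1956 bases. The mean signal over all 20 arrays chose each window and includes the tested arrays, so it is not independent of the test. By that mean, the share called under 0 went from 4.21% in the lowest of 4 equal groups of promoters through 6.30% and 11.1% to 19.3% in the highest. The share called above 0 went the other way, from 1.71% through 0.468% and 0.0825% to 0.0550%.

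Listed peaks at the 1487 promoters followed the signal on the same arrays and so are not independent of it. An average ethanol 1h array of the run had a peak at 77.0% of them, beside 40.5% of all promoters, and an average ethanol 6h array at 21.3%, beside 25.4%. The carbohydrate arrays went from 28.6% at 1h to 48.5% at 6h, beside 29.3% and 35.6%. Since these promoters were chosen on the same probe values, the peak shares are a description only.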

How the data were processed

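p65-bound DNA was hybridised with a reference to 2-colour NimbleGen promoter arrays, with Cy5 for the precipitate and Cy3 for input per the labels; the labelling text names IgG DNA, so the reference is not settled. The authors deposited a log2 ratio per probe and array (713735 probes). The authors' peak lists, 1 per array, give a score and an FDR (a q-value type measure, at most 0.19961), per the file headers. Peak caller, build and normalization are not given in the sources used here.

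Values were multiplied by -1 and centred on each array's median, and neither loess nor quantile normalization was applied. Probes within 1000 bp formed 14723 tiled regions, 14540 with a 500 bp window of at least 4 probes. Names came from the accessions of the peak lists (13670 of 14678 matched RefSeq). limma 3.58.1 in R 4.3.3 (lmFit, contrasts.fit, eBayes with trend) was fitted to 4 group means, two-sided, with Benjamini-Hochberg adjustment over all promoters and a threshold of 0.05, and tested on simulated data. Whole-array measures used exact permutation in Python 3.11.15. Precision is limited by the number of arrays, with a median SE of 0.181 for the diet difference in 11 arrays and 0.176 in 14.

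Promoters were named by rule: the 8 highest and 8 lowest called in 11 arrays, the 12 largest with both changes called in 14 arrays, 6 in each direction by smallest p where none was called, and for each list the member with the smallest p. Pigr, Il6r, Slco1a1 and other list members given with values were chosen after their values were seen. Some promoters that the rule chose are not reported here. The members and lists were chosen with earlier results of these data known. Alternatives in scaling, window, slide, run, weights and arrays were also run.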

Additional observations from a re-analysis of the deposited data

Results flagged for a closer look

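The diet difference itself is a test of 2 groups' effects under the same contrast, so each promoter reported by the naming rule that passed it in the 11 arrays is listed with its log2 value. Values of -1 or less were Ppp6r1 -1.57, H4c14 with Hist2h3c2 -1.54, Lcmt2 -1.27, Smarcad1 -1.27, Ttpa -1.24, Nfkbia -1.22, Nfs1 -1.20, Adam6 -1.20, Ccno -1.20, Rdh10 with Rpl7 -1.18, Smim13 -1.16, Sugt1 -1.15, Fam234b -1.13, Plg -1.05 and Slc45a3 -1.02. Values between -1 and -0.80 were C9h2orf49 with Tgfbrap1 -0.95, Ahr -0.94, Zfp438 -0.90, Vdac3 -0.87, Zbtb11 -0.86, Pcna with Tmem230 -0.86, Cdc40 with Wasf1 -0.85, Txnrd1 -0.84 and Ccn1 -0.84. Values nearer 0 were Nefm -0.80, Ndufb6 -0.79, Art3 with Cxcl9 -0.73, Or7a36 with Or7a37 -0.72, Cd8b -0.68, Inhba -0.67, Srebf2 -0.66, Rxra -0.64, Akt1 with Mta1 with Zbtb42 -0.62, Ahcy -0.62 and Cyp2e1 -0.62. Values above 0 were Spink13 1.09, Semg1 1.01, Ephx1 0.89, Moxd2 0.79, Tmem116 0.78, Tbcc 0.77, Neurl3 0.76, Gabrp 0.74, Dlgap4 0.64, Serpind1 0.54 and Clic6 0.51. Promoters joined by "with" share a window. None of these passed with all 14 arrays, and the cause of that difference was not tested.

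Whole-array measures also differed in their time change between the diets at an unadjusted exact permutation p under 0.05. These were the number of peaks (-5045 in 11 arrays and -3634 in 14), the share of promoters with a peak (-21.5 and -15.9 percentage points) and the SD of promoter signal (-0.0949 and -0.0738). The 11-array values of the peak number and the peak share passed the adjustment over 10 tests, and the other 4 did not.

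A single array lay far from the rest of its group of 4 at 8 of 110 group and promoter pairs examined, where chance gives about 1 in 20. At Ppp6r1 it was carbohydrate 6h replicate 1, at -0.20 where the others lay from 0.46 to 0.57. At Slc45a3 it was carbohydrate 6h replicate 2, at 0.64 where the others lay from 0.27 to 0.29. At Ephx1 it was ethanol 6h replicate 3, at 0.18 where the others lay from 0.45 to 0.48. At Nfs1 it was ethanol 6h replicate 3, at -0.51 where the others lay from 0.02 to 0.05. At Dlgap4 it was ethanol 6h replicate 1, at 0.20 where the others lay from 0.09 to 0.11. At Fam234b it was carbohydrate 6h replicate 1, at 0.0039 where the others lay from 0.41 to 0.47. At Fam234b it was ethanol 6h replicate 4, at 0.45 where the others lay from -0.0034 to 0.012. At Akt1 with Mta1 with Zbtb42 it was ethanol 6h replicate 3, at 0.35 where the others lay from 0.02 to 0.06.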

How the results depend on the processing

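With 14 arrays, alternatives gave 0 calls except ethanol 1h replicate 1, carbohydrate 1h replicate 1 or ethanol 6h replicate 3 left out (1347, 1 and 1), the array run as a term (689), array weights (692), slide as a random (29) or fixed (19) block and the replicate block (20). The 11-array count of 1571 became 969 with equal spread, 785 with window centring, 162 with window scaling, 504 with quantile normalization, 805 with slide as a fixed block, 991 with the replicate block and 132 with windows of the deposited direction, and lay from 312 to 2558 with 1 array left out. Window centring and scaling were chosen after seeing the data. The setting called the deposited direction chose windows by the highest mean of the unmultiplied ratio, and its values were still multiplied by -1. Same-numbered arrays did not pair: 7 of 19 pairs deviated together at r above 0.1 (-0.224 to 0.498). With the replicate block called promoters of opposite sign were 5.55% of those tested, those with both changes called 31, and diet calls 30 at 6h in 11 arrays and 2 at 1h in 14. Called promoters of opposite sign (8.8% of those tested) became 5.4% with equal spread, 4.22% with window centring, 0.990% with window scaling, 2.98% with quantile normalization, 4.26% with the region mean, 4.78% with slide fixed and 0.832% in the deposited direction, and 1.77% to 14.1% with 1 array left out. The 100 with both changes called became 60 with quantile normalization, 27 with window scaling, 7 with slide fixed and 7 in the deposited direction, and 10 to 184 with 1 array left out. The 17 of the 14-array fit became 9 with the 1000 bp window or with all 20 arrays, 11 with equal spread, 10 with quantile normalization or window scaling, 51 with weights, 0 with slide fixed or the deposited direction, and 3 to 114 with 1 array left out. Time changes in carbohydrate livers (3992 and 3489 in 14 and 11 arrays) became 561 and 294 in the deposited direction, 1077 and 1347 with slide fixed and 6056 (14) with the region mean, and 2787 to 4703 and 897 to 3928 with 1 array left out. Those in ethanol livers (4100 and 5142) became 297 and 847, 1932 and 2610, and 7335 and 8117, and 2943 to 4421 and 2821 to 5240. Diet calls at 1h in 11 arrays (352) became 40 with weights, 31 in the deposited direction, 1475 with the region mean, 8 with window scaling and 69 with quantile normalization, and 17 to 1172 with 1 array left out. In 14 arrays (0) they became 1 with the 1000 bp window or weights, 81 with run, 47 with the region mean, 58 and 9 with slide fixed and random, and 0 to 682. Diet calls at 6h in 11 arrays (228) became 0 with the 1000 bp window, the region mean or slide fixed, 3311 with weights, 1 with window centring, 12 with equal spread, 15 in the deposited direction, 376 with no variance trend, 8 with window scaling, 68 with quantile normalization and 124 with windows chosen on these arrays, and 0 to 969. In 14 arrays (0) they became 63 with run and 2674 with weights, and stayed at 0 with any 1 array left out. Named promoters changed sign in 67 of their alternatives, with values for 14 and 11 arrays, or for the number in brackets. With the 1000 bp window they were Cdc40 with Wasf1 0.26 and 0.39, Rdh10 with Rpl7 0.13 and 0.24, Smim13 0.084 and 0.23. Averaged over the tiled region they were Adam6 0.12 and 0.17, Cd8b 0.0055 and 0.075, Csf1r 0.045 and 0.0398, Or7a36 with Or7a37 0.021 and 0.058, Ptprb -0.094 and -0.12. With windows chosen on the arrays of the fit they were Neurl3 -0.11 (11), Semg1 -0.38 (11), Tmem116 -0.16 and -0.41. In the deposited direction, where windows were chosen by the highest mean there, they were Adam6 0.69 and 1.10, Ahcy 0.037 and 0.19, Ahr 0.10 (11), C9h2orf49 with Tgfbrap1 0.0504 (11), Cdc40 with Wasf1 0.032 (11), Clic6 -0.027 (14), Csf1r 0.094 and 0.22, Epcam 0.072 and 0.045, Ephx1 -0.047 (11), Fam234b 0.063 (11), Lcmt2 0.0058 and 0.14, Moxd2 -0.002 (11), Nefm 0.18 and 0.038, Neurl3 -0.0501 and -0.028, Nfkbia 0.037 and 0.082, Or7a36 with Or7a37 0.32 and 0.24, Pcna with Tmem230 0.12 (11), Plg 0.15 and 0.31, Ppp6r1 0.20 and 0.31, Rdh10 with Rpl7 0.22 and 0.34, Rxra 0.016 and 0.0199, Serpind1 -0.0032 (14), Slc45a3 0.24 and 0.21, Smarcad1 0.12 and 0.26, Smim13 0.057 (11), Spink13 -0.055 and -0.014, Ttpa 0.0092 and 0.23, Vdac3 0.088 (11), Zbtb11 0.035 (11), Zfp438 0.012 (11). The cause of these changes was not tested. Leaving out a 1h array of the run leaves 1 in its group, which is then assumed to vary like the other groups. The 11-array test has 7 residual degrees of freedom, and the depth of signal over background is unknown, since scanner intensities were not used here.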

Other observations

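The lobes taken at surgery enter no comparison here, and none of their 6 arrays lies in the run of 11. Over the 1487 promoters called under 0, the median signal of the 0h arrays was 0.24 with carbohydrate and 0.26 with ethanol. In the run it was 0.17 at carbohydrate 1h, 0.43 at carbohydrate 6h, 0.60 at ethanol 1h and 0.15 at ethanol 6h. At Nfkbia the 0h arrays were at 0.01, 0.25 and 0.75 with carbohydrate and at 0.36, 0.20 and 0.48 with ethanol.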
